A study of Mus musculus with 38 samples.

Results

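Ptprj, Ttc39b, Gdpd5, Gfod2, Myo19, Pdlim2, Mmgt2, 2200002K05Rik and 2610042L04Rik are 9 genes outside the classical calcium transport set, taken by symbol from the 21441 genes measured in mouse intestine. They were picked because their level after 1,25(OH)2D3 stood above that after vehicle in several tissues, so their vitamin D against vehicle values, and any call made on them, describe that choice and support nothing. The libraries for RNA-seq were from vitamin D deficient, wild type mice of strain C57BL6/J. Tissue was taken 4 h after an intraperitoneal dose of 1,25(OH)2D3 (10 ng per g) or of vehicle alone (0.1 ml of propylene glycol with ethanol). From the proximal small intestine, EDTA released villi and crypts, which a filter then separated, whereas the colon epithelium was obtained by scraping. Villi gave 6 vehicle and 7 vitamin D libraries, crypts gave 6 of each, and colon gave 6 and 7. The age is 10 to 13.3 weeks in one label and 12 to 14 weeks in the treatment protocol. How many mice went into 1 library is not stated in the labels. The p-values below therefore measure the spread between these samples alone, which may be technical.

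1,25(OH)2D3 is the hormonal form of vitamin D. It binds the vitamin D receptor, a nuclear receptor that pairs with a retinoid X receptor and binds DNA at short hexamers, classically as direct repeats. In the intestine it is known for raising genes of calcium absorption and Cyp24a1, the hydroxylase that inactivates the hormone itself. The 9 genes described here belong to other functions: phosphatase and phosphodiesterase signalling at the membrane, lipid regulation, mitochondrial movement, control of transcription factor stability and membrane proteins of little known role.

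Promoter windows from RefSeq (build GRCm38.p6), the 250 bases before an annotated start, were found for 6 of the 9 genes and searched on both strands for 4 hexamers that the receptor binds. These were AGGTCA and its variant GGGTCA, with AGTTCA as another and GGTTCA as the last. Windows are shown for the gene whose window held hexamers and for 2 genes whose windows held none: Ttc39b, one of 3 genes that varied with Cyp24a1 at an unadjusted p under 0.05, and Myo19, whose groups were apart in every tissue. Capitals mark hexamers, which here lie on the other strand, and the letters are written 5′ to 3′ on the strand of the gene. The 2200002K05Rik window (Vstm5 in RefSeq) is chr9:15238795-15239044 (plus strand), the Ttc39b window chr4:83324190-83324439 (minus strand) and the Myo19 window chr11:84879920-84880169 (plus strand).
2200002K05Rik: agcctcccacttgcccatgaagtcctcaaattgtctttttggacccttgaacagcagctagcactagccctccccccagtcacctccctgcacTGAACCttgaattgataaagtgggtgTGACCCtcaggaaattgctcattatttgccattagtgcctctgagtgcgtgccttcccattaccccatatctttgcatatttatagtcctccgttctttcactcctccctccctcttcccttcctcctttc
Ttc39b: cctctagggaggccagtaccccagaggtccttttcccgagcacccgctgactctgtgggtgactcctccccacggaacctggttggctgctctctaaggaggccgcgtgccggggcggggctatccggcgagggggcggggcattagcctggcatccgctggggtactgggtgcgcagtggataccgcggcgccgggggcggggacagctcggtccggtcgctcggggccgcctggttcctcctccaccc
Myo19: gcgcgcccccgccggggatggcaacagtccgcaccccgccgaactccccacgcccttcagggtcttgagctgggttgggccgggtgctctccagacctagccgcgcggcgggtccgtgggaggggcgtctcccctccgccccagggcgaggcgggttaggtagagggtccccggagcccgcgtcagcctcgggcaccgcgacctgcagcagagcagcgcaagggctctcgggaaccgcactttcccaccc
The 2200002K05Rik window held 2 hexamers, GGTTCA starting 157 bases and GGGTCA starting 131 bases before the start, and 38.6% of all 32851 RefSeq windows held at least 1. The other 6 windows, of Ptprj (2 windows), Ttc39b, Gfod2, Myo19 and 2610042L04Rik, held none of these letters. A direct repeat of 2 hexamers with 3 bases between was in none of the 7 windows and in 0.0396% of all windows. The GC content of the 7 windows ran from 44.8% to 79.2%, against a median of 52.4% over all windows. A match is a description of the letters and not a binding site, and windows farther from the start were not searched.

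Libraries held 13.8 M to 17.5 M reads, recovered from the steps between low FPKM values. Cyp24a1 marked the treatment: vehicle libraries had 0.0548 to 62.2 FPKM (median 0.977) in villi, 0.184 to 7.35 FPKM in crypts and 0.114 to 64.7 FPKM in colon, and the lowest vitamin D library in any tissue had 403 FPKM. Vehicle villi replicate 6 (62.2 FPKM), vehicle colon replicate 6 (64.7 FPKM) and vitamin D colon replicate 7 (403 FPKM) stood apart in Cyp24a1. The sex label is pooled. Xist was above Ddx3y in 24 libraries (female pattern) and not in the other 14 (male pattern), with 1 male library in each crypt group. That rule gives every library 1 sex, so it cannot show whether a library was a mixed pool. Summed colon markers followed the labelled tissue, with 7956 to 18566 FPKM for 7 genes in colon and 197 to 367 FPKM elsewhere. Villus enterocyte markers in crypts varied widely, from 6602 to 52757 FPKM in vehicle and from 7887 to 31455 FPKM in vitamin D libraries. Their median sum was 21143 and 13068 FPKM. In villi these markers summed to 38511 to 59679 FPKM after vehicle and 45288 to 64654 FPKM after vitamin D. The highest vehicle crypt libraries, at 52757 and 43659 FPKM, lay inside the vehicle villus range, in tables normalised separately. Summed crypt base and Paneth markers (5 genes) did follow the label. They had 2988 to 9435 FPKM in vehicle and 4543 to 7964 FPKM in vitamin D crypts, and at most 1060 and 279 FPKM in villi. The median log2 fold change of the 10 villus enterocyte markers in crypts was -0.57, beside -0.01 over all genes. The part of villus enterocyte content in the crypt values was not tested. Over all genes, limma called 211 higher (2.17% of 9706 tested) and 29 lower (0.299%) in villi, 121 higher (1.13% of 10733) and 36 lower (0.335%) in crypts, and 88 higher (0.763% of 11540) and 7 lower (0.0607%) in colon. Blocking on the replicate number took the crypt total from 157 to 444, and leaving out vehicle crypts replicate 4 took it to 1065.

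All 9 genes passed the filter on low values in the 3 tissues, 2610042L04Rik in villi only through its vitamin D libraries. Since the genes were chosen from these contrasts, nothing is read from the counts that follow. By limma at an adjusted p of 0.05, 9 of 9 were called higher in villi, where 2.17% of all tested genes were, and 2610042L04Rik could be tested there only by being higher. In crypts 8 of 9 were (all genes 1.13%), Pdlim2 being the exception, and in colon 9 of 9 (all genes 0.763%). The authors' deposited table called 9 of 9 in each tissue, against 2.89%, 2.4% and 1.37% of its genes in villi, crypts and colon. Groups did not overlap for 6 genes in villi (1.75% of all genes), 7 in crypts (1.23%) and 7 in colon (0.754%). The median log2 fold change of the 9 genes was 1.46 in villi, 1.35 in crypts and 1.33 in colon, beside -0.01, -0.01 and 0.00 over all genes tested. FPKM is reads per transcript length and library size, each tissue's table was normalised separately, and fold changes below are on log2(FPKM + 0.5) with the standard error, which understates changes of low genes.

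**Figure D1:**
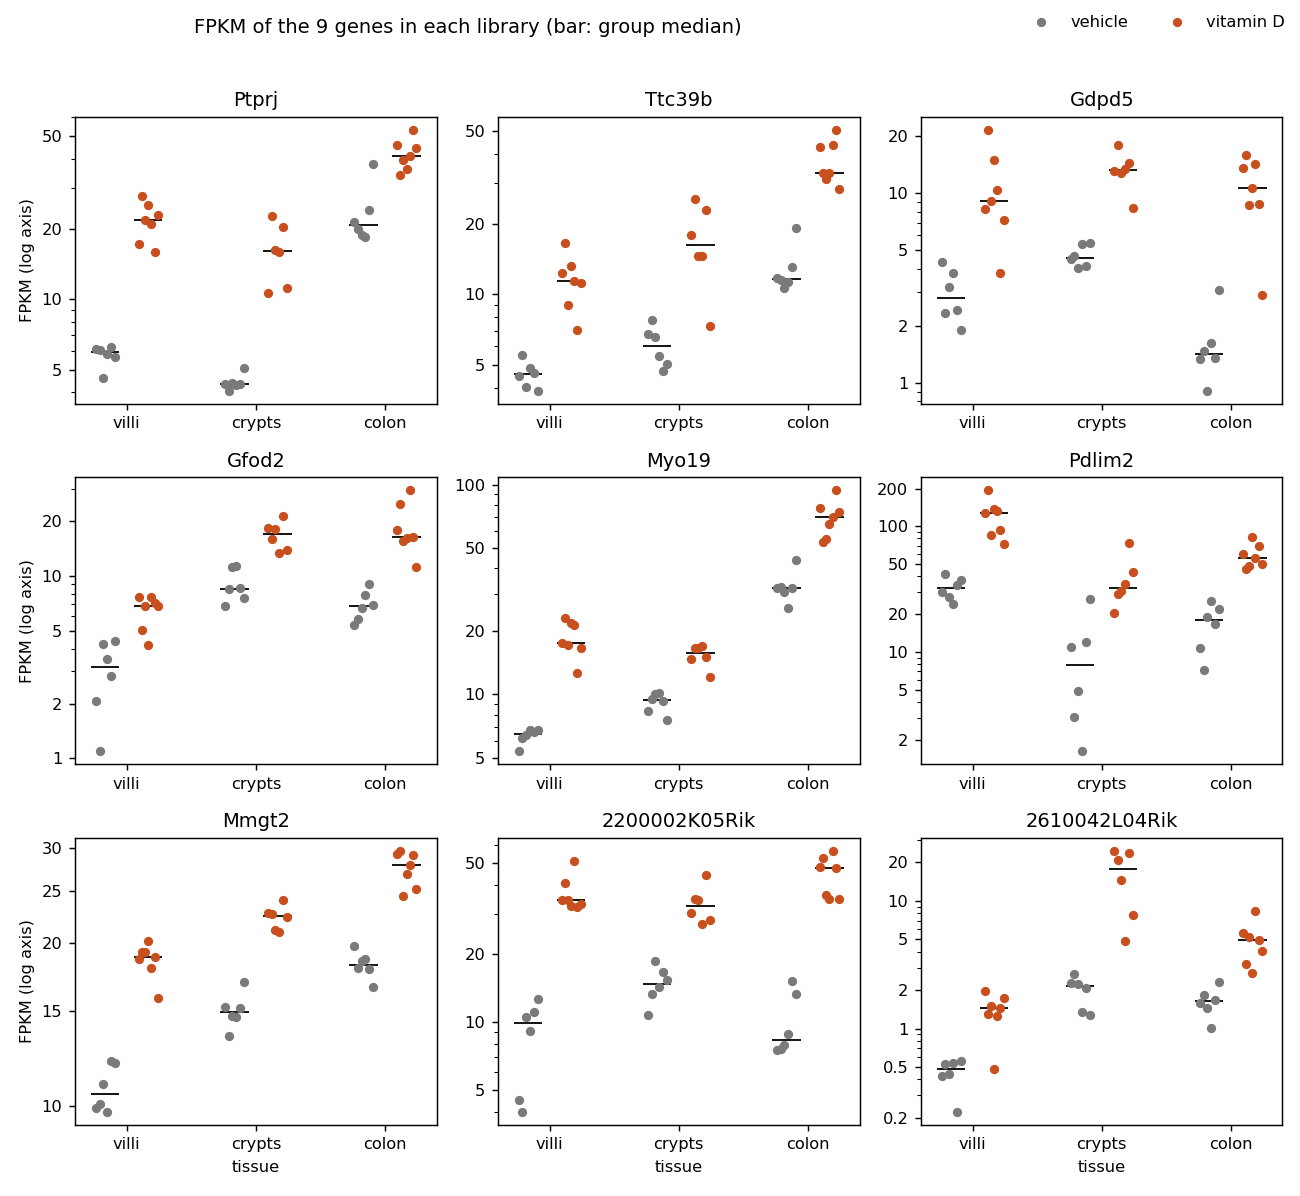
FPKM (log axis) of each of the 9 genes in every library of villi, crypts and colon, vehicle in grey and vitamin D in orange, with a bar at the group median. The groups are apart in all 3 tissues for Myo19, Mmgt2 and 2200002K05Rik, and Ptprj and Myo19 stand highest in colon in their separately normalised tables.

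Ptprj encodes a receptor-type tyrosine phosphatase (CD148), a membrane protein that removes phosphate from receptor tyrosine kinases and acts on Src family kinases. In villi, vehicle libraries had 4.60 to 6.23 FPKM (median 5.94) and vitamin D libraries 16.0 to 27.7 FPKM (median 21.9). The groups were apart, with a log2 fold change of 1.82 ± 0.12. In crypts, vehicle libraries had 4.06 to 5.08 FPKM (median 4.34) and vitamin D libraries 10.6 to 22.7 FPKM (median 16.0), again with no overlap, a log2 fold change of 1.71 ± 0.17. The vehicle libraries of both tissues lay close together, with coefficients of variation of 10.4% and 7.81%, whereas the vitamin D libraries of crypts spread over 29.9%. In colon, where the vehicle level was already at 18.4 to 37.8 FPKM (median 20.7), vitamin D libraries had 34.1 to 53.0 FPKM (median 40.9), a log2 fold change of 0.86 ± 0.16. There the groups overlapped through vehicle replicate 6 at 37.8 FPKM, the vehicle library with the highest Cyp24a1, and without it they did not. The limma call in colon was lost without vehicle replicate 2 or 4.

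Ttc39b encodes a tetratricopeptide repeat protein linked in liver to the turnover of the liver X receptor (LXR), a sterol-sensing nuclear receptor, and to HDL cholesterol. In villi it had 3.87 to 5.53 FPKM (median 4.55) after vehicle and 7.07 to 16.6 FPKM (median 11.4) after vitamin D, with the groups apart, a log2 fold change of 1.22 ± 0.16. In crypts, vehicle libraries had 4.72 to 7.80 FPKM (median 6.01) and vitamin D libraries 7.31 to 25.5 FPKM (median 16.3), a log2 fold change of 1.35 ± 0.25. The crypt groups overlapped in 1 library, vitamin D replicate 6 at 7.31 FPKM, which also had the lowest Cyp24a1 of the vitamin D crypts (2516 FPKM). The same library had the most villus enterocyte marker signal of the vitamin D crypts (31455 FPKM summed, against 19343 FPKM for the next). What made Ttc39b low there was not tested. Without that library 8 of the 9 genes had groups apart in crypts (all genes 1.97%). In colon the ranges were 10.6 to 19.2 FPKM (median 11.7) and 28.2 to 50.5 FPKM (median 33.2), with no overlap, a log2 fold change of 1.50 ± 0.16. As for Ptprj, the highest vehicle colon library was replicate 6, at 19.2 FPKM against 13.1 FPKM for the next.

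Gdpd5 encodes GDE2, a membrane glycerophosphodiester phosphodiesterase that releases GPI-anchored proteins from the cell surface and takes part in glycerophosphocholine breakdown. Its vitamin D libraries in villi varied the most of the 9 genes, with 1.90 to 4.36 FPKM (median 2.82) in vehicle and 3.78 to 21.5 FPKM (median 9.04) in vitamin D libraries, a log2 fold change of 1.56 ± 0.31. The lowest vitamin D value, in replicate 6, lay below the highest vehicle value, and the coefficient of variation was 54.3%. In crypts the groups were apart, at 4.02 to 5.45 FPKM (median 4.58) and 8.33 to 18.0 FPKM (median 13.3), a log2 fold change of 1.39 ± 0.15. Colon had the lowest vehicle level and the largest fold change, at 0.909 to 3.08 FPKM (median 1.42) after vehicle and 2.91 to 15.8 FPKM (median 10.7) after vitamin D, a log2 fold change of 2.31 ± 0.33. The overlap in colon lay between vitamin D replicate 7 (2.91 FPKM) and vehicle replicate 6 (3.08 FPKM), the libraries with the lowest and highest Cyp24a1 of their groups. With either left out, the Gdpd5 groups were apart, and without vehicle replicate 6 those of all 9 genes were (all genes 1.1%).

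Gfod2 is a glucose-fructose oxidoreductase domain gene whose function is little known. In villi, vehicle libraries had 1.09 to 4.39 FPKM (median 3.17), between 30.9 and 146 reads, and vitamin D libraries 4.21 to 7.69 FPKM (median 6.84), a log2 fold change of 1.06 ± 0.24. These groups overlapped, and limma's call was lost without the filter on low values and when any of 7 single libraries was left out. In crypts the groups were apart, at 6.86 to 11.3 FPKM (median 8.52) and 13.3 to 21.4 FPKM (median 17.1), a log2 fold change of 0.87 ± 0.15. They were apart in colon too, at 5.39 to 9.07 FPKM (median 6.81) and 11.2 to 29.4 FPKM (median 16.3), a log2 fold change of 1.33 ± 0.19. Vitamin D colon replicate 7, with the lowest Cyp24a1, was again the lowest of its group.

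Myo19 encodes an unconventional myosin that sits on the mitochondrial outer membrane and moves mitochondria along actin. Villi had 5.36 to 6.78 FPKM (median 6.48) after vehicle and 12.6 to 23.2 FPKM (median 17.6) after vitamin D, with a log2 fold change of 1.46 ± 0.13. Crypts had 7.53 to 10.1 FPKM (median 9.38) after vehicle and 12.2 to 16.9 FPKM (median 15.8) after vitamin D, a log2 fold change of 0.72 ± 0.10. Colon had the highest level of the 3 tables, at 25.8 to 43.6 FPKM (median 32.0) after vehicle and 53.4 to 93.8 FPKM (median 69.9) after vitamin D, a log2 fold change of 1.07 ± 0.14. In each tissue every vitamin D library lay above every vehicle library, by as little as 1.2-fold between the nearest libraries in crypts and 1.86-fold in villi. Whether the fold changes of this or any other of the 9 genes differ between tissues was not tested, since these contrasts chose the genes.

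**Figure D2:**
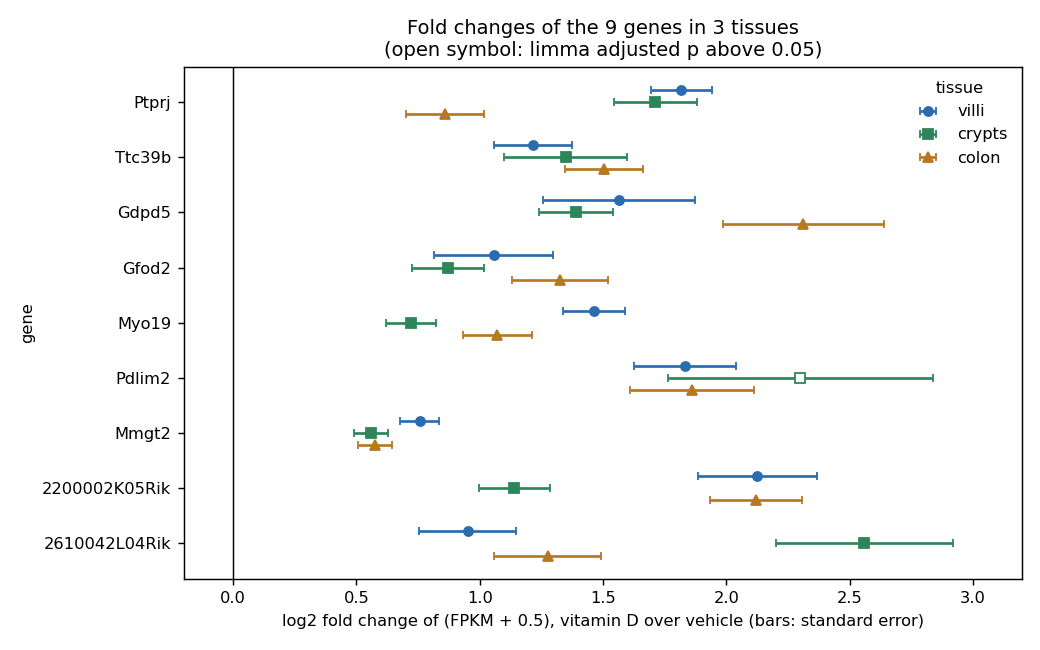
Log2 fold change of (FPKM + 0.5), vitamin D over vehicle, with its standard error, for the 9 genes in villi (circles), crypts (squares) and colon (triangles); the open symbol did not pass limma's threshold. Mmgt2 has the smallest changes (0.56 to 0.76) and Pdlim2 in crypts the widest error (2.30 ± 0.54).

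Pdlim2 encodes a PDZ and LIM domain protein of the cytoskeleton and nucleus, known for promoting the breakdown of the NF-kB subunit p65 and of STAT proteins. It was the most abundant of the 9 genes in villi, with 24.1 to 41.4 FPKM (median 32.1) after vehicle and 71.9 to 193 FPKM (median 128) after vitamin D. The villus groups were apart, a log2 fold change of 1.83 ± 0.21, as were those of colon at 7.19 to 25.4 FPKM (median 17.8) and 45.6 to 82.4 FPKM (median 55.5), a log2 fold change of 1.86 ± 0.25. In crypts, vehicle libraries scattered over 1.62 to 26.2 FPKM (median 7.93), a coefficient of variation of 92.8%, and vitamin D libraries over 20.5 to 74.0 FPKM (median 32.5). Only vehicle crypts replicate 6 reached into the vitamin D range, and the fold change of 2.30 ± 0.54 missed limma's threshold. That library also had the most villus enterocyte marker signal of the vehicle crypts (52757 FPKM summed over 10 genes). The part of villus cells in the crypt values was not tested. Blocked on the replicate number, the crypt call passed, as it did without vehicle replicate 6 (log2 fold change 2.67) or vehicle replicate 4 (1.94).

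Mmgt2 encodes a membrane magnesium transporter whose paralogue Mmgt1 is a subunit of the endoplasmic reticulum membrane complex. Its changes were the smallest of the 9 genes in each tissue, and its libraries were the most alike in 5 of the 6 groups, Myo19 being tighter in vehicle villi. Vehicle villi had 9.77 to 12.1 FPKM (median 10.5) and vitamin D villi 15.8 to 20.2 FPKM (median 18.8), a log2 fold change of 0.76 ± 0.08. Crypts had 13.5 to 16.9 FPKM (median 14.9) after vehicle and 21.0 to 24 FPKM (median 22.5) after vitamin D, a log2 fold change of 0.56 ± 0.07, and colon had 16.6 to 19.7 FPKM (median 18.2) after vehicle and 24.5 to 29.6 FPKM (median 27.9) after vitamin D, a log2 fold change of 0.58 ± 0.07. Coefficients of variation were 5.02% to 9.76%, where the median over all tested genes was 15.4% to 20.8% by group, and the groups were apart in every tissue. Mmgt1 stood at 8.27 and 8.77 FPKM (means) in villi, 15.1 and 15.6 FPKM in crypts and 12.6 and 12.7 FPKM in colon after vehicle and vitamin D, and passed in no tissue (limma adjusted p = 0.757, 0.818 and 0.984).

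2200002K05Rik, named Vstm5 in RefSeq, encodes an immunoglobulin superfamily membrane protein, and its promoter window with 2 hexamers on the other strand is shown above. In villi it had 4.02 to 12.6 FPKM (median 9.85) after vehicle and 32.0 to 51.1 FPKM (median 34.5) after vitamin D, a log2 fold change of 2.13 ± 0.24, the lowest vitamin D library being 2.54 times the highest vehicle library. In crypts the ranges were 10.8 to 18.6 FPKM (median 14.7) and 26.9 to 44.5 FPKM (median 32.3), a log2 fold change of 1.14 ± 0.14. In colon they were 7.53 to 15.1 FPKM (median 8.36) and 34.7 to 56.7 FPKM (median 47.6), a log2 fold change of 2.12 ± 0.19. All vitamin D libraries stood above all vehicle libraries in the 3 tissues. In villi, vehicle replicates 1 and 2 were low at 4.53 and 4.02 FPKM, and the other 4 vehicle libraries lay at 9.14 FPKM or more.

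2610042L04Rik is a gene known by its RIKEN clone name, and its reads could not be assigned with confidence. Of the 31-letter words of its GENCODE M21 transcripts, 83.0% also occurred in transcripts of other genes, and 87 other genes held at least 10% of them, 5 of these with values of their own in the tables. For the other 8 genes the share was 0% to 11.5%. Its values may therefore mix several near-identical copies. Vehicle villi had 0.224 to 0.557 FPKM (median 0.482), from 19.1 to 48.8 reads, and vitamin D villi 0.487 to 1.97 FPKM (median 1.45), a log2 fold change of 0.95 ± 0.20, overlapping through vitamin D replicate 4. The villus fold change ran from 0.69 to 1.62 over the alternatives, the highest being that of the authors' deposited table. Blocked on the replicate number, that villus call no longer passed. In crypts the ranges were 1.27 to 2.67 FPKM (median 2.15) and 4.82 to 24.6 FPKM (median 17.6), a log2 fold change of 2.56 ± 0.36, and in colon 1.02 to 2.33 FPKM (median 1.65) and 2.74 to 8.34 FPKM (median 4.93), a log2 fold change of 1.27 ± 0.22. The groups were apart in both, and crypts showed the largest fold change of any of the 9 genes in any tissue. The neighbouring D830030K20Rik, which holds 12.2% of its words, stood at 2.01 and 1.62 FPKM (means) in crypts and was not called (limma adjusted p = 0.761). Of the 5 genes with values of their own it shares the fewest words. Gm2897 (46.4%), Gm3696 (44.8%), Gm10406 (44.2%) and 4930555G01Rik (20.1%) share more and were not compared. Whether copies are mixed was therefore not tested.

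In all of these bulk libraries, more cells of an expressing type and more RNA per cell cannot be told apart. Of 9 stromal, endothelial and muscle markers, 7 had a median under 0.1 FPKM in villi and in crypts, and their sum reached 3.48 FPKM in villi and 8.41 FPKM in crypts at most. In colon the sum ran from 11.5 to 256 FPKM after vehicle and from 15.2 to 4178 FPKM after vitamin D, highest in vitamin D replicate 2. That library had the lowest Ptprj, Myo19 and Pdlim2 and the highest Gdpd5 and Mmgt2 of its group. Leucocyte markers summed to 40.0 to 139 FPKM in vehicle and 44.0 to 288 FPKM in vitamin D colon. In crypts their sum was 9.80 to 18.4 FPKM (median 13.2) after vehicle and 11.4 to 28.0 FPKM (median 20.4) after vitamin D. Of 6 leucocyte markers tested in crypts limma called 1 higher (all genes 1.13%), the B cell receptor component Cd79b. It rose from 0.678 ± 0.493 to 5.63 ± 2.36 FPKM (limma adjusted p = 0.00276), with 6 of 6 vitamin D values above any vehicle value. The median log2 fold change of the 6 markers was only 0.10, beside -0.01 over all genes, so Cd79b does not stand for the list. The part of such cells in the crypt and colon values was not tested.

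The order of the 9 genes by mean FPKM differed between groups. In vehicle villi Pdlim2 led (32.4 ± 6.5 FPKM, SD, n = 6) and its range did not meet that of Mmgt2 (10.8 ± 1.06 FPKM), while the genes from Mmgt2 down to Gdpd5 overlapped each with the next. In vitamin D villi Pdlim2 (120 ± 40.9 FPKM, n = 7) stood clear of 2200002K05Rik (36.9 ± 6.96 FPKM), and 2200002K05Rik clear of Ptprj. In vehicle crypts Mmgt2 (15.0 ± 1.13 FPKM, n = 6) came first, overlapping with 2200002K05Rik and on down to Ptprj, and only 2610042L04Rik lay apart at the bottom. In vitamin D crypts Pdlim2 and 2200002K05Rik overlapped at the top, and the genes from Mmgt2 down to Gdpd5, with 2610042L04Rik among them, overlapped each with the next. In vehicle colon Myo19 (32.8 ± 5.85 FPKM, n = 6) led, and a gap in the ranges lay only between Gfod2 and the lowest pair, 2610042L04Rik and Gdpd5. In vitamin D colon Myo19 (69.7 ± 13.9 FPKM, n = 7) led and every neighbouring pair overlapped.

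Between tissues, the authors' deposited tables compared vitamin D libraries with one another, which does not use the vehicle contrast. Of the 9 genes, 7 passed their adjusted p of 0.05 between villus and crypts, where 61.9% of all genes did, 6 between villus and colon (64.7%) and 5 between crypts and colon (56.5%), so the counts were near those of genes in general. The log2 fold changes of these tables follow the second tissue over the first. Against log2 ratios of the separately normalised FPKM they were offset by a median of -0.49 for villus and crypts, -0.70 for villus and colon and -0.08 for crypts and colon, so sizes and calls depend on that scaling. In the authors' deposited table, Pdlim2 was lower in crypts than in villus, with a log2 fold change of -2.13 ± 0.29 (SE). Its colon level in the authors' deposited table was also below villus (-1.73 ± 0.21). Myo19 was higher in colon than in crypts by 2.10 ± 0.14 and than in villus by 1.20 ± 0.16 in the authors' deposited tables. Ptprj was higher in colon than in crypts by 1.30 ± 0.18, and did not pass between villus and colon (0.25 ± 0.14) in the authors' deposited tables. Its mean FPKM was 21.7 in vitamin D villi and 41.9 in vitamin D colon. 2610042L04Rik had the largest tissue difference of the 9, at 3.04 ± 0.37 for crypts over villus in the authors' deposited table. Gdpd5 passed in none of the 3 comparisons of the authors' deposited tables, with -0.18 ± 0.32, -0.71 ± 0.37 and -0.40 ± 0.30.

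The choice of the genes used the vitamin D libraries by their level against vehicle. Spread among those libraries bears on which genes stand out as raised, so the relations below are not independent of the choice. How far the genes followed Cyp24a1 among these 20 libraries was taken on deviations from the tissue mean of log2(FPKM + 0.5). Permuting within tissues, 3 of the 9 genes had a positive r with an unadjusted p under 0.05, where 4.67% of 9310 genes tested in every tissue did. Most of those genes were not called after vitamin D, whereas the 9 were picked for being raised. No share among called genes was computed, so the comparison is not like for like. After adjustment over all 9310 genes, 0 of them passed, the 9 included. For Gdpd5, r was 0.78 and rho 0.75 (permutation p = 0.00129 and 0.000330, the first adjusted to 0.245 over all genes), and 0.0644% of genes had an r as high. For Ttc39b, r was 0.51 and rho 0.67 (permutation p = 0.000540 and 0.00120, the first adjusted to 0.213), and 3.80% of genes had an r as high. For Mmgt2, r was 0.59 and rho 0.62 (permutation p = 0.00663 and 0.00537, the first adjusted to 0.357), and 1.58% of genes had an r as high. The other 6 genes had r of 0.14 to 0.44 (permutation p of 0.0514 or more). The permutation takes the 20 libraries as independent. Whether libraries of different tissues came from the same mice is not stated, and consecutive numbers in the column names join vitamin D villi replicate 7 to colon replicate 7, the lowest in Cyp24a1 of both groups, and villi replicate 5 to colon replicate 6.

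**Figure D3:**
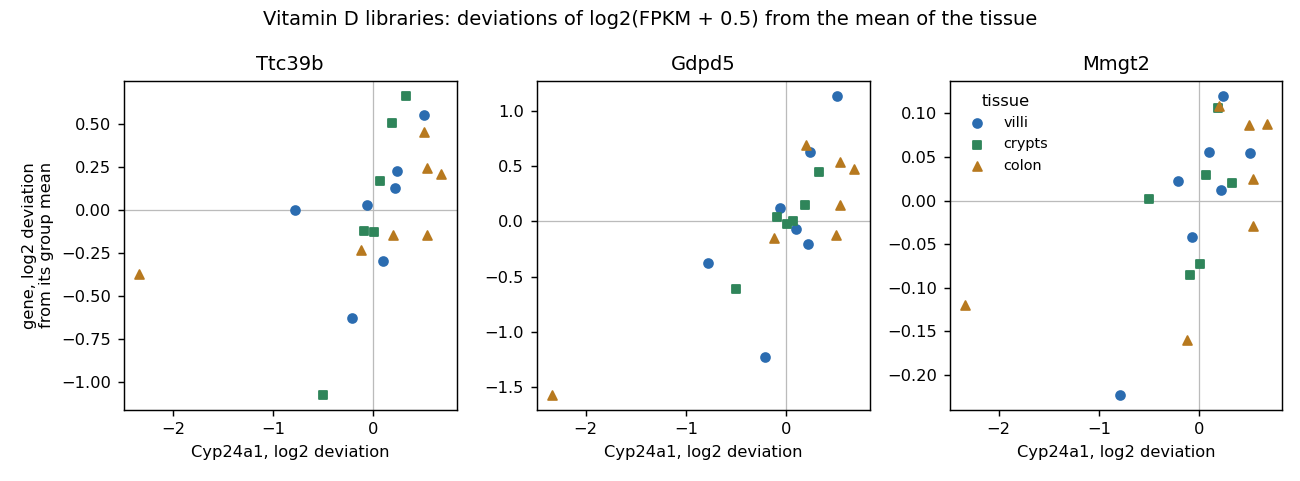
Deviation of log2(FPKM + 0.5) from the tissue mean for Ttc39b, Gdpd5 and Mmgt2 (vertical axes, each with its own scale) against that of Cyp24a1 (horizontal axis) in the 20 vitamin D libraries, villi as circles, crypts as squares and colon as triangles. Vitamin D colon replicate 7, with 403 FPKM of Cyp24a1, is the triangle at the far left.

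The 2 libraries farthest out in Cyp24a1 were vitamin D colon replicate 7 and vitamin D villi replicate 7. Without them r was 0.67 for Gdpd5 and 0.84 for Ttc39b, and 0.50 for Mmgt2 (permutation p = 0.00187, 3e-05 and 0.0589). In the same 18 libraries r was 0.62 for Ptprj and 0.70 for Myo19 (permutation p = 0.00898 and 0.00242). That made 4 of the 9 genes with a positive r and an unadjusted p under 0.05, where 6.05% of all genes had one, and again 0 genes passed adjustment over all genes. Within tissues, Gdpd5 had r of 0.65 in villi, 0.97 in crypts and 0.91 in colon (exact permutation p = 0.116, 0.00694 and 0.0381, n = 7, 6 and 7). Ttc39b had 0.50, 0.99 and 0.67 (exact permutation p = 0.244, 0.00278 and 0.0655), and Mmgt2 0.86, 0.34 and 0.62 (exact permutation p = 0.0232, 0.512 and 0.104). Pdlim2 reached r of 0.84 in villi (exact permutation p = 0.0159) but -0.11 in crypts and 0.44 in colon. The remaining genes had r from -0.45 (Gfod2 in villi) to 0.73 (Myo19 in crypts), with exact permutation p of 0.0958 or more. Among them r was also negative for 2610042L04Rik in villi (-0.34) and Ptprj in colon (-0.08). These within-tissue p-values were not adjusted, and no share over all genes was computed for them. Vitamin D crypts replicate 6, lowest in Cyp24a1 and highest in villus enterocyte markers of its group, entered every crypt r and the 18 libraries. Its part in these values was not tested.

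Among vehicle libraries, replicate 6 of colon with 64.7 FPKM of Cyp24a1, against at most 5.38 FPKM in the others, was the highest for 5 of the 9 genes (Ptprj, Ttc39b, Gdpd5, Myo19 and 2610042L04Rik). Vehicle villi replicate 6, with 62.2 FPKM against at most 1.33 FPKM, was the highest for Gfod2, 2200002K05Rik and 2610042L04Rik. Consecutive numbers in the column names join vehicle villi replicate 6 to vehicle colon replicate 6, so these may not be separate cases. Vehicle crypts replicate 5, with 7.35 FPKM, was the highest for none. The vitamin D library with the least Cyp24a1 was the lowest of its group for Ttc39b, Gdpd5 and Gfod2 in colon (replicate 7), for Ttc39b, Gdpd5 and Myo19 in crypts (replicate 6), and for Pdlim2 and Mmgt2 in villi (replicate 7). Replicate 6 of the vitamin D crypts also had the most villus enterocyte marker signal of its group. The share of all genes that were highest or lowest in these libraries was not computed, so nothing is read from these counts.

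Over the 38 libraries, the 36 pairs of deviations from the group means had a median r of 0.17, from -0.19 to 0.76, and 28 were positive. The closest pair was 2200002K05Rik with Gfod2 at 0.76. Among 9311 genes tested in every tissue, those whose deviations were most like Ttc39b were Enpp1 (r = 0.77) and Soat1 (0.77), the acyl-CoA cholesterol acyltransferase, and limma called Soat1 higher in villi and crypts (log2 fold change 1.46 and 1.66). Gdpd5 was most like Ate1 (0.74), called higher in the 3 tissues (0.92, 0.84 and 0.91), and Galnt10 (0.70), called higher in crypts. Ptprj went with Jhdm1d (0.78) and Ermp1 (0.73), Myo19 with Brpf3 (0.77) and Inpp5j (0.75), and Gfod2 with Tmem206 (0.79) and Pkdcc (0.78). Pdlim2 was closest to Abhd4 (0.89) and Sult2b1 (0.88), which limma called in no tissue. Mmgt2 was closest to Ndufb10 (0.70) and Atp5h (0.68), genes of the respiratory chain and ATP synthase, and 2610042L04Rik to Slc25a30 (0.71) and C230035I16Rik (0.68). These libraries also share preparation and depth, so the values are descriptions.

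Relatives of the 9 genes were taken from family lists. Of 75 genes in these lists (receptor-type tyrosine phosphatases, Ttc39, phosphodiesterase and choline genes, Gfod, unconventional myosins, PDZ-LIM and the membrane complex), 50 were tested in villi, 52 in crypts and 55 in colon. Limma called 0 of them in any tissue, where 2.17%, 1.13% and 0.763% of all tested genes were called higher, so 0 is near that share. An unadjusted p under 0.05 was found for 6, 9 and 4. The share of all genes under that unadjusted p was not computed. In the authors' deposited table Gdpd2 was called higher and Ptprr lower in villi, Myo1d and Pdlim1 lower in crypts, and 0 in colon. Myo15, an unconventional myosin named after its values were seen, was too low to be tested, with 0.0406 ± 0.0236 and 0.426 ± 0.173 FPKM in villi (7 of 7 vitamin D values above any vehicle value) and 0.0175 ± 0.0166 and 0.343 ± 0.273 FPKM in crypts (6 of 6). In colon it had 0.0126 ± 0.00694 and 0.0139 ± 0.0137 FPKM (2 of 7). The share of genes below the filter with groups apart was not computed. Median log2 fold changes of the tested relatives were 0.01, -0.09 and -0.08, beside -0.01, -0.01 and 0.00 over all genes tested. Gdpd2, the nearest to limma's threshold, had 13.6 ± 4.05 FPKM (SD, n = 6) and 22.2 ± 3.88 FPKM (n = 7) in villi (limma log2 fold change 0.73 ± 0.18, adjusted p = 0.0501). Ttc39a, the most abundant Ttc39 gene in colon, had 71.5 ± 12.7 and 66.8 ± 14.3 FPKM there (limma adjusted p = 0.908). Gfod1, the only close relative of Gfod2, had means of 1.27 to 3.38 FPKM in the 3 tissues and was not called.

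Genes that act with the 9 were described in the same way, from 4 lists with 56 genes. Limma called 1 of 45 tested higher in villi (all genes 2.17%), 1 of 44 lower in crypts (all genes 0.335%) and 0 of 50 in colon. An unadjusted p under 0.05 was found for 5, 6 and 5, again without a share over all genes. In the authors' deposited table the calls were Npc1l1 higher in villi, Tnfaip3 and Relb lower in crypts, and 0 in colon. The villus gene was Npc1l1, the intestinal cholesterol transporter in the LXR list, which rose from 365 ± 64.2 to 532 ± 39.5 FPKM (limma adjusted p = 0.0120), with 7 of 7 vitamin D values higher than any vehicle value. For the LXR list, Npc1l1 included, the median log2 fold change was 0.28 in villi, -0.45 in crypts and -0.15 in colon, with 9, 8 and 11 genes tested. Over all genes tested it was -0.01, -0.01 and 0.00, and for the villus enterocyte markers 0.06, -0.57 and -0.21. The part of enterocyte content in the LXR list values was not tested. The crypt gene was Tnfaip3, an inhibitor of NF-kB signalling, which fell from 9.24 ± 2.14 to 5.02 ± 0.487 FPKM (limma adjusted p = 0.0118). Of 17 genes of mitochondrial transport and dynamics, the machinery that Myo19 works with, 16 were tested in each tissue. Of 13 substrates and ligands of Ptprj, 10 were tested in villi, 10 in crypts and 12 in colon. Neither list held a call by limma or by the authors' deposited table, with at most 1 per tissue and list at an unadjusted p under 0.05. Limma called 2.17%, 1.13% and 0.763% of all genes higher in villi, crypts and colon, so nothing is read from 0 calls among so few genes.

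Of the classical vitamin D and calcium genes, 4 of 7 tested were called higher in villi (all genes 2.17%), 4 of 6 in crypts (1.13%) and 3 of 7 in colon (0.763%). Atp2b1, the basolateral calcium pump, was the only one besides Cyp24a1 called in the 3 tissues, with log2 fold changes of 1.33 ± 0.12, 1.56 ± 0.17 and 1.50 ± 0.16. S100g, the calcium buffer calbindin-D9k, and Cldn2, a tight junction claudin, were called in villi and crypts, and Trpv6, the apical calcium channel, in colon.

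Genes next to the 9 on the chromosome, up to 2 on each side, were looked at after their values were seen. Of 35 neighbours, limma called 4 of 29 tested higher in villi, 1 of 33 higher and 1 lower in crypts, and 2 of 34 higher in colon. Over all tested genes, 2.17% were called higher in villi, 1.13% higher and 0.335% lower in crypts, and 0.763% higher in colon. Beside Pdlim2, 9930012K11Rik rose in villi from 1.22 ± 0.570 to 4.84 ± 2.48 FPKM (log2 fold change 1.59 ± 0.28, limma adjusted p = 0.00522) and in crypts by 1.06 ± 0.18 (limma adjusted p = 0.00929). In colon its log2 fold change was 1.10 and was not called. Ppp3cc, a calcineurin subunit 2 genes away on the other side, rose in villi (0.98 ± 0.19, limma adjusted p = 0.0128). Near 2200002K05Rik, 4931406C07Rik rose in villi from 123 ± 20.9 to 253 ± 53.2 FPKM (limma adjusted p = 0.00237) and in colon by 1.34 ± 0.17 (limma adjusted p = 0.00142), while Med17, which lies between them, was not called. Pigw, next to Myo19, rose in colon (0.78 ± 0.12, limma adjusted p = 0.00373), and 0.653% of the 31-letter words of Myo19 also occurred in it. Nup160, next to Ptprj, rose in villi (0.50 ± 0.11, limma adjusted p = 0.0295), and Trim16, next to Mmgt2, fell in crypts by 0.51 ± 0.11 (limma adjusted p = 0.0307). No 31-letter word was shared in the other 5 of these 6 pairs.

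**Figure D4:**
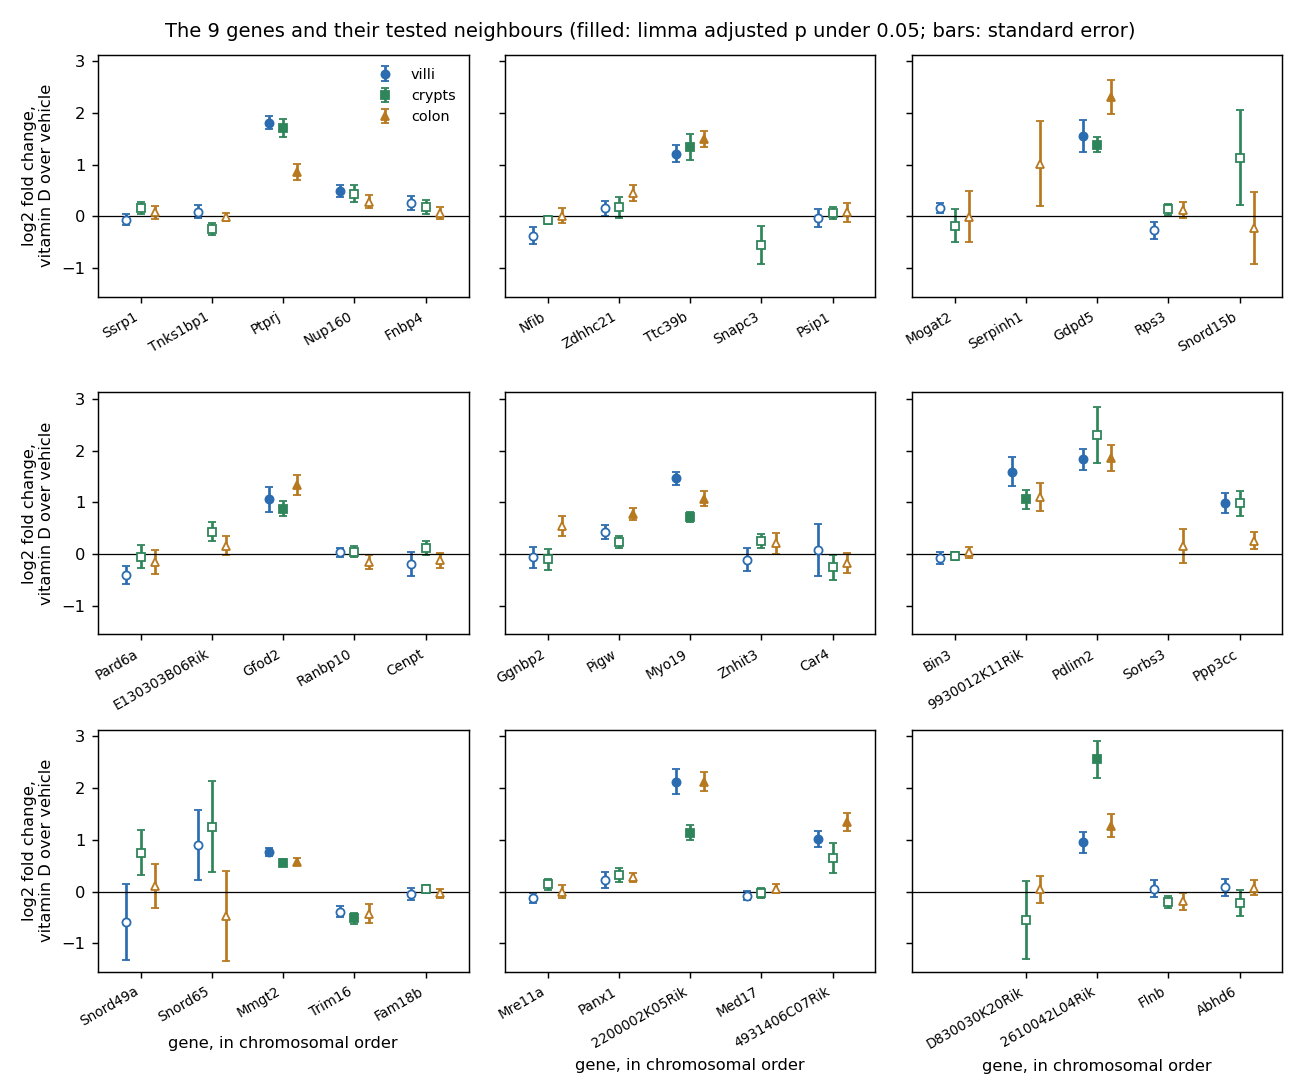
Log2 fold change of (FPKM + 0.5), vitamin D over vehicle, with its standard error, for each of the 9 genes and its tested neighbours in chromosomal order; filled symbols passed limma's threshold. Pdlim2 and 2200002K05Rik each have a neighbour called higher in 2 tissues.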

How the data were processed

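RNA-seq of 38 libraries was analysed from 3 tables of FPKM values that the authors deposited, with 6 tables of the authors' deposited comparisons (log2 fold changes, adjusted p-values, a mean signal per gene and, per the file headers, a test statistic or score, which was not used). The submitters' processing notes name kallisto 0.45.0, DESeq 1.28.1, DESeq2 and mm9; no role is stated for any of them. The 9 genes and all gene lists were chosen with earlier results of these data known.

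Each tissue was fitted on its own with limma 3.58.1 (R 4.3.3, trended empirical Bayes) on log2(FPKM + 0.5), for genes with at least 1 FPKM in at least 6 libraries, with Benjamini-Hochberg adjustment and a threshold of 0.05. The fit was tested on simulated data. The genes named are the 9, Cyp24a1, the 2 genes most alike each of the 9, relatives in the family lists and up to 3 called genes of each other list per tissue. Chromosomal neighbours and Relb were named after their values were seen. Of 200 list genes in 18 lists, 183 were found by symbol and 11 under an older symbol, and 6 were not found. Relations with Cyp24a1 used 100000 permutations within tissues, for all genes tested in every tissue (Python 3.11.15, numpy 2.4.6, pandas 2.3.3, scipy 1.17.1). Deviations of same-numbered vehicle and vitamin D libraries had r of 0.102 to 0.465 in villi, 0.119 to 0.545 in crypts and 0.0569 to 0.572 in colon. The same-numbered library was the best match for 3 of 6 in villi, 3 of 6 in crypts and 1 of 6 in colon. The data therefore do not settle whether the number pairs libraries, and the replicate block is given only as an alternative. Alternatives were other pseudocounts, no filter, median centring, the replicate block, column name style, sex pattern, single libraries left out and the authors' deposited comparisons. Whole reads were recovered from FPKM steps, with 77.9% to 91.2% of values under 30 reads within 0.05 of a whole number.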

Additional observations from a re-analysis of the deposited data

Results flagged for a closer look

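In 6 of the 54 gene and group combinations, 1 library lay far from the others of its group. Chance alone flags about 1 in 20 independent combinations, but these share libraries, so no excess is read from the 6. Vehicle colon replicate 6 accounted for 4 of them. It had 37.8 FPKM of Ptprj against 18.4 to 24.2 FPKM in the other vehicle colon libraries, 19.2 FPKM of Ttc39b against 10.6 to 13.1 FPKM, 3.08 FPKM of Gdpd5 against 0.909 to 1.63 FPKM, and 43.6 FPKM of Myo19 against 25.8 to 32.4 FPKM. The same library had 64.7 FPKM of Cyp24a1, and what sets it apart was not tested. Ptprj was low in vehicle villi replicate 3, at 4.60 FPKM against 5.64 to 6.23 FPKM. Ptprj was high in vehicle crypts replicate 6, at 5.08 FPKM against 4.06 to 4.39 FPKM, in the vehicle crypt library with the most villus enterocyte marker signal.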

How the results depend on the processing

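As a description of genes chosen on these contrasts, over 27 gene and tissue values and 585 alternatives, 562 kept direction and call, 16 lost and 7 gained the call, and 0 changed direction. Losses fell on Gfod2 in villi and crypts, 2610042L04Rik in villi and colon, Pdlim2 in colon and Ptprj in colon, and all gains on Pdlim2 in crypts. Genes called in villi went from 240 to 97 in plain-named libraries and 436 in the authors' deposited table. In crypts 157 became 84 in plain-named libraries, 391 with column name style, 272 with sex pattern (added after seeing the data) and 550 in the authors' deposited table. In colon 95 became 246 in the authors' deposited table. With the replicate block the counts were 341 in villi, 444 in crypts (249 higher, 195 lower) and 147 in colon. Leaving out single libraries gave 176 to 223 genes in villi, 107 to 1065 in crypts (most without vehicle crypts replicate 4) and 66 to 141 in colon, with 8 to 9 of the 9 genes called in each tissue. Adjusted over the 9 genes, 3 relations with Cyp24a1 passed, 1 in plain-named libraries and 4 without the outermost libraries, and the cause was not tested. Adjusted over all genes, 0 passed. Depth limits 2610042L04Rik and Gfod2 in villi most, with as few as 19.1 and 30.9 reads.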
